A study of Mus musculus with 32 samples.

Results

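Complement components and receptors were followed in the mesentery of mice, a peritoneal sheet that suspends the gut and holds its vessels, lymph nodes and fat. The genes were listed by symbol: C1qa, C1qb, C1qc, C2, C3, C4b and Cfb for components, C3ar1 and C5ar1 for receptors. Of these 9 genes, among 18193 genes on the array, 7 had a probe set annotated to 1 symbol, and all 7 passed the filter on dim signals and were tested. C3 had no probe set of its own symbol in the annotation used here, and the probe set for C4b carries C4a as well, so both were not analysed here. Each measured gene was represented by its brightest single-symbol probe set.

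Mesentery RNA was hybridised to 32 Affymetrix oligonucleotide arrays. Treated mice had received 0.5 ml of pristane (TMPD), a mineral oil hydrocarbon that causes lasting inflammation in the peritoneal cavity, by intraperitoneal injection, and controls were untreated. The arrays with pristane were 3 of BALB/c at day 3, 3 of the BALB/DBA F1 hybrid at day 3, 3 of DBA at day 3, 4 of BALB/c at day 18 and 3 of DBA at day 18. The controls were 3 F1 arrays, 7 BALB/c arrays and 6 DBA arrays. Codes in the sample titles fall into 3 runs: day 3 arrays of all strains with 9 controls, BALB/c day 18 with 4 controls, and DBA day 18 with 3 controls. Every response was measured against controls of the same strain and code run, and the meaning of the codes is not given in the labels. The titles of the BALB/c day 18 run contain the word mix, without saying whether RNA of several mice was pooled. The labels give no age, sex or DBA substrain and do not tie arrays to separate mice, so p-values measure the spread between arrays, which may be partly technical.

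Complement is a cascade of plasma and tissue proteins that coats particles, releases inflammatory fragments and assembles pores in membranes. C1q, built from C1qa, C1qb and C1qc chains, starts the classical pathway when it binds immune complexes, dying cells or other targets, and tissue macrophages are a main source of it. C2 supplies the protease of the classical and lectin convertases, and factor B, encoded by Cfb, supplies that of the alternative pathway convertase. C3ar1 and C5ar1 encode the receptors for the C3a and C5a fragments on myeloid cells. The liver makes much of the plasma complement, and inflamed tissue makes its own.

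Promoter sequences are shown for the genes whose values the results turn on and that have an entry among RefSeq promoters of the assembly GRCm38.p6. Entries were found for 4 of the 7 measured genes, C1qb, C1qc, C3ar1 and C5ar1. C1qb and C1qc are printed because their signals moved together from array to array. C3ar1 is printed because, on its brightest probe set, the F1 and DBA responses differed at day 3 and the DBA response differed between days. Each line gives 250 bases before 1 annotated start, 5′ to 3′ in the direction of the gene. Capitals mark matches to the motifs named after the lines.
C1qb promoter, chr4:136886201-136886450, minus strand: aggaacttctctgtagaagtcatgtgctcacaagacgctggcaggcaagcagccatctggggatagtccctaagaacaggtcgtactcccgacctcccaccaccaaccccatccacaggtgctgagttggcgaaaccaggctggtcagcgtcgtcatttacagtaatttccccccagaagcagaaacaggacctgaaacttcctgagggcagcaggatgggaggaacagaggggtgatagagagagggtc
C1qc promoter, chr4:136892915-136893164, minus strand: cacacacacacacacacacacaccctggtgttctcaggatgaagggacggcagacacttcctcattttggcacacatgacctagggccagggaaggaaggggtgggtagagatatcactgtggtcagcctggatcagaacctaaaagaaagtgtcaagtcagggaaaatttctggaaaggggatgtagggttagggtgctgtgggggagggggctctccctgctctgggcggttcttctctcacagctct
C3ar1 promoter, chr6:122856158-122856407, minus strand: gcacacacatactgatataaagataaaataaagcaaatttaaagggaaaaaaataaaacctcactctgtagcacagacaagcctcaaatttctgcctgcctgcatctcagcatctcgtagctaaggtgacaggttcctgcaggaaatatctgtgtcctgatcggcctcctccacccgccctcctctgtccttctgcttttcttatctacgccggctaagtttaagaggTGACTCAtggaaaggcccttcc
Both strands of these windows were searched for GAAANNGAA (interferon-stimulated response element), TTCNNNGAA (gamma-activated site), TGANTCA (AP-1), AGAGGAAG (a PU.1-type ETS site) and GGGNNTTCC (NF-kappaB). Among 32851 promoter windows of the same length, 7.13% held the interferon letters, 7.02% the gamma-activated letters, 6.75% the AP-1 letters, 3.665% the ETS letters and 4.977% the NF-kappaB letters. C3ar1 had TGANTCA at bases -22 to -16 from the start. C5ar1, whose window is not printed, had GAAANNGAA on the opposite strand at bases -66 to -58. The start used for C5ar1 and C1qc lies inside the RefSeq span of the gene, so their windows reach into that span, and the C5ar1 match falls within it. The windows of C1qb and C1qc held none of the letters searched. The interferon and NF-kappaB motifs had first been searched in forms 1 base longer, held by 2.98% and 4.11% of windows, and the matches depend on the form. In the longer forms C3ar1 had an NF-kappaB match on the opposite strand at bases -14 to -5, and C5ar1 had no interferon match. A match is a description of letters and not a measured site.

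Values are MAS5 signals on a linear scale, and each array has the same trimmed mean. Array medians lay between 90.6 and 135.3. BALB/c control replicate 2 stands apart from the other arrays. Its highest correlation with any other array was 0.858, and its pancreatic acinar genes had a mean log2 signal of 16.86. The actin 3′/5′ ratio, a sign of RNA quality, was lower in treated groups than in their controls, for example 1.56 ± 0.17 in F1 at day 3 and 2.10 ± 0.04 in F1 controls (SD, n = 3 each). Xist, expressed from the inactive X chromosome of females, was 12293.5 to 16807.8 on the F1 day 3 arrays and 55.0 to 107.1 on the F1 controls, so treatment and the level of Xist cannot be told apart in F1. Xist ran from 72.5 to 14911.6 in DBA at day 18 and from 73.7 to 15338.9 in the controls of that run. In BALB/c at day 18 it ran from 50.7 to 13673.5, and from 43.9 to 30368.3 in the controls of that run. On BALB/c and DBA arrays of the day 3 run it was 16851.7 or higher. The part of these array differences in the results was not tested, apart from a fit with a term for Xist. In bulk tissue, more cells of a type and more RNA per cell cannot be told apart.

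After pristane 6 of the 7 genes rose in every response. Log2 changes lay between 1.11 and 1.86 for the C1q chains and between 2.00 and 3.37 for Cfb, C3ar1 and C5ar1. C2 passed the test in no response. Called means an adjusted p under 0.05 in limma, with Benjamini-Hochberg adjustment over 13016 genes. Among all genes tested, the share called higher was 18.3% in BALB/c at day 3, 18.6% in F1 at day 3, 16.4% in DBA at day 3, 21.7% in BALB/c at day 18 and 22.4% in DBA at day 18. The share called lower was 17.2%, 18%, 13.4%, 22.2% and 25% in the same order. The median log2 change of the 7 genes was 1.35, 1.64, 1.53, 1.77 and 1.86 in those comparisons, and the median over all genes lay between -0.04 and 0.00. In each of the 5 responses, the treated and control arrays of the 6 genes called higher did not overlap. The share of all genes with every treated array above every control of its run was 26.7% in BALB/c at day 3, 25.5% in F1 at day 3, 27.3% in DBA at day 3, 17.9% in BALB/c at day 18 and 28.6% in DBA at day 18.

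**Figure D1:**
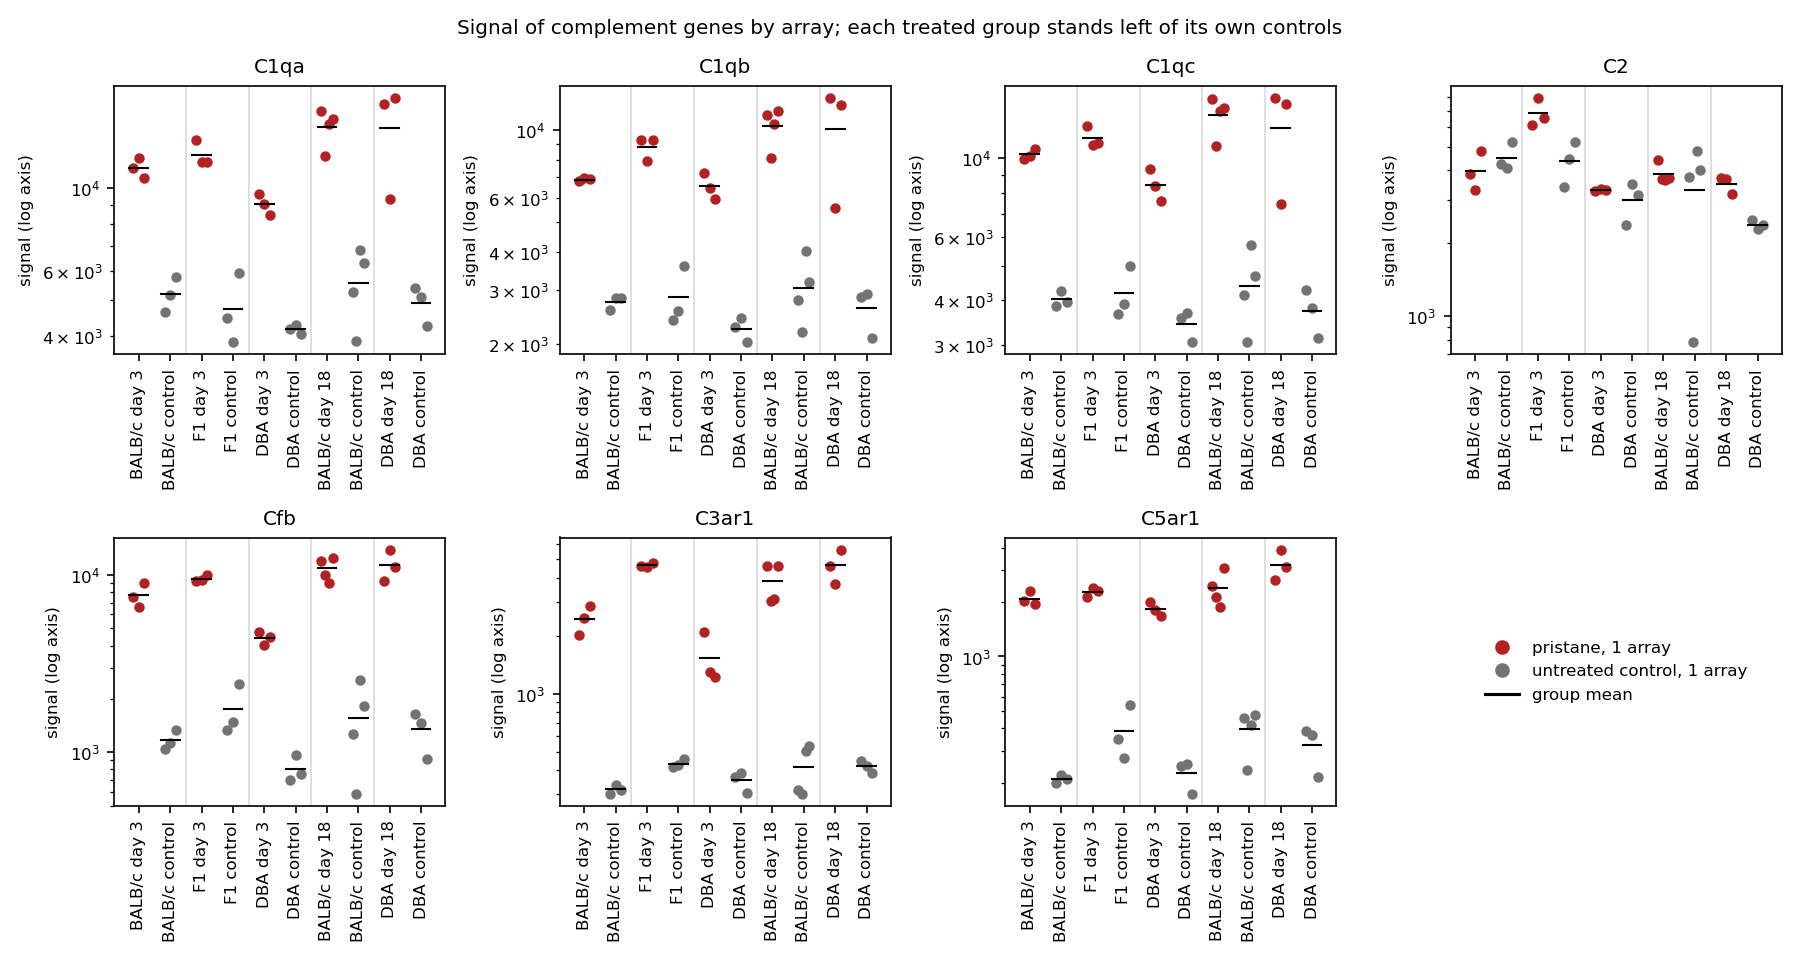
Signal of each of the 7 measured genes on every array, on a log axis, with treated groups left of their controls of the same strain and code run; each point is 1 array and each bar the group mean. C1qa, C1qb, C1qc, Cfb, C3ar1 and C5ar1 lay above their controls on every treated array, and C2 overlapped its controls in 3 of the 5 responses.

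The 3 C1q chains rose in all 5 responses. C1qb, the B chain of C1q, had signals of 6797.6, 6950 and 6912.4 in BALB/c at day 3, against 2588.6, 2827.8 and 2818.5 in BALB/c controls. In F1 at day 3 it had 9233.6, 7941.4 and 9259, against 2389.9, 2560.1 and 3605.4 in F1 controls. DBA at day 3 had 7214.7, 6484.3 and 5952.2, against 2282, 2426.2 and 2028 in DBA controls. The day 3 groups did not overlap their controls, and F1 had the highest treated arrays. At day 18 C1qb had 11182.6, 8112, 10469.8 and 11540.9 in BALB/c, against 2776.5, 2194.2, 4027.6 and 3191.2 in BALB/c controls. In DBA at day 18 it had 12685.8, 5557.5 and 12035.6, against 2846.8, 2924.3 and 2101 in DBA controls. DBA day 18 replicate 2 was the low array, though still above every control. The log2 change of C1qb was 1.32 ± 0.23 in BALB/c at day 3, 1.64 ± 0.23 in F1 at day 3, 1.53 ± 0.23 in DBA at day 3, 1.77 ± 0.20 in BALB/c at day 18 and 1.86 ± 0.23 in DBA at day 18 (SE). Adjusted p from limma ran between 5.26e-08 and 5.54e-05.

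C1qa, the A chain, averaged 11341 ± 687 in BALB/c at day 3 and 5194 ± 552 in BALB/c controls (SD, n = 3 each). In DBA at day 18 it averaged 14557 ± 4496, against 4923 ± 582 in DBA controls (SD, n = 3 each). Its log2 changes ran between 1.11 in DBA at day 3 and 1.51 in DBA at day 18. C1qc, the C chain, averaged 10256 ± 322 in BALB/c at day 3, against 4022 ± 199 in BALB/c controls (SD, n = 3 each). In BALB/c at day 18 C1qc lay between 10825.7 and 14679.8, against 3058.6 to 5706.7 in BALB/c controls. The log2 changes of C1qc ran between 1.29 in DBA at day 3 and 1.64 in DBA at day 18. The 2 further probe sets of C1qb also passed in all 5 responses, with log2 changes of 1.17 to 2.22.

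C2, the protease of the classical and lectin convertases, had treated and control arrays that overlapped in 3 of the 5 responses. In BALB/c at day 3 C2 had 3847.1, 3305 and 4777.6, against 4224.8, 4070.2 and 5208.8 in BALB/c controls. In F1 at day 3 it had 6127.6, 7914 and 6548.3, against 3395.4, 4443.3 and 5227.3 in F1 controls. The F1 arrays did not overlap, with every treated array above every control. DBA at day 3 had 3294, 3328.3 and 3299.5, against 2383.2, 3493.5 and 3159.9 in DBA controls. BALB/c at day 18 had 4384.6, 3686.6, 3628.4 and 3707.2, against 3751.4, 781.1, 4775.3 and 3987.8 in BALB/c controls, where replicate 2 is the low array. DBA at day 18 had 3701.9, 3665.6 and 3178.5, against 2487.9, 2285.1 and 2366.8 in DBA controls. The DBA day 18 arrays all lay above their controls. The log2 change of C2 was -0.19 ± 0.36 in BALB/c at day 3 and 0.67 ± 0.36 in F1 at day 3 (SE). It was 0.15 ± 0.36 in DBA at day 3, 0.48 ± 0.31 in BALB/c at day 18 and 0.56 ± 0.36 in DBA at day 18 (SE). Adjusted p from limma lay between 0.159 and 0.802, which does not show that C2 was unaffected.

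The C2 result depends on 1 array and on the fit. BALB/c control replicate 2 is the array with high pancreatic acinar signal. Without it, C2 passed in F1 at day 3 (log2 change 0.67, limma adjusted p = 0.000832) and in DBA at day 18 (0.56, adjusted p = 0.00302), which makes 7 of 7 genes called there. With every array included, C2 also passed in F1 at day 3 with array weights (0.59, adjusted p = 0.00119), in a fit on the arrays of that comparison alone (0.67, adjusted p = 0.0199) and as the mean over its probe sets (0.75, adjusted p = 0.0467). In DBA at day 18 it passed with array weights (0.46, adjusted p = 0.00701) and in the separate fit (0.56, adjusted p = 0.00234). Without BALB/c control replicate 2 the BALB/c day 18 change was -0.11 (adjusted p = 0.552). The 2 further probe sets of C2 passed in F1 at day 3 with every array included, at log2 changes of 0.69 and 0.89 (adjusted p = 0.0352 and 0.0128), and in no other response. With a term for Xist, C2 had a log2 change of 1.13 in F1 at day 3 (limma adjusted p = 0.0379).

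**Figure D2:**
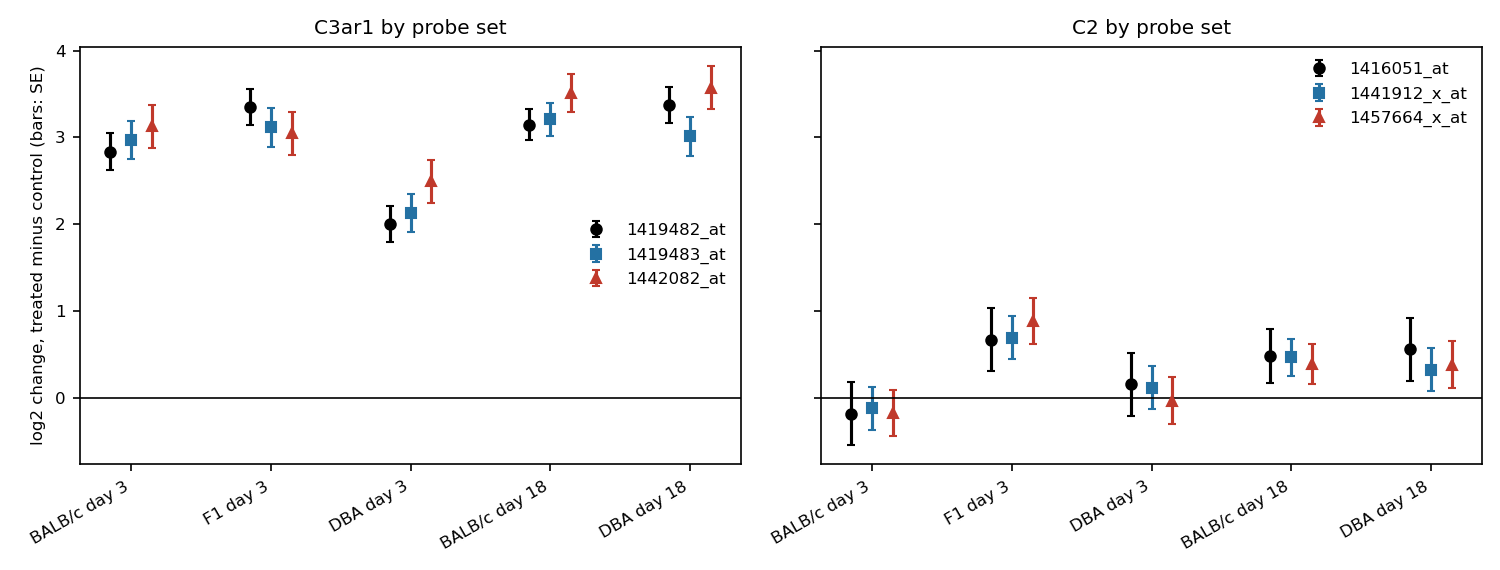
Log2 change, treated minus control, of every single-symbol probe set of C3ar1 and of C2 in the 5 responses, with bars for SE. The probe sets of C3ar1 agree in sign. Those of C2 have smaller changes, of which 2 passed, both in F1 at day 3.

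Cfb, the protease of the alternative pathway convertase, showed a large response in every strain. In BALB/c at day 3 it had 7544.4, 6598.9 and 8995, against 1048, 1134.9 and 1338.6 in BALB/c controls. In F1 at day 3 it had 9206.8, 9405.8 and 10030.3, against 1344.7, 1473.4 and 2432.6 in F1 controls. DBA at day 3 had 4774.2, 4029.2 and 4481.1, against 700.7, 962.5 and 758.7 in DBA controls. DBA was the lowest of the day 3 groups with pristane and also had the lowest controls. BALB/c at day 18 had 12064.9, 10061.3, 9024.1 and 12532.5, against 1261.9, 584, 2553.9 and 1817.6 in BALB/c controls. DBA at day 18 had 9305.3, 13912.3 and 11159.3, against 1652.4, 1462.4 and 921.7 in DBA controls. The lowest treated array was at least 3.53 times the highest control of its run in each response. Log2 changes were 2.69 ± 0.32, 2.48 ± 0.32 and 2.43 ± 0.32 in BALB/c, F1 and DBA at day 3 (SE), and 2.97 ± 0.27 and 3.09 ± 0.32 in BALB/c and DBA at day 18 (SE). Their adjusted p from limma ran between 2.26e-09 and 2.21e-06. Cfb and C2 are neighbouring genes on chromosome 17 in GRCm38.p6, and C1qb, C1qc and C1qa follow each other on chromosome 4. Whether the responses of these 2 neighbours, Cfb and C2, differ was not tested.

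C3ar1, the receptor for C3a, rose in all 5 responses, least in DBA at day 3. In BALB/c at day 3 C3ar1 had 2015.6, 2477.3 and 2846.7, against 301.9, 335.9 and 316.1 in BALB/c controls. In F1 at day 3 it had 4613.7, 4556.6 and 4749.4, against 413.6, 426.9 and 454.6 in F1 controls. DBA at day 3 had 2080.8, 1291.5 and 1213.7, against 370.2, 385.9 and 305.4 in DBA controls. The F1 arrays were the highest of day 3, and DBA replicate 1 was the high array of its group. BALB/c at day 18 had 4584, 3021.3, 3099.9 and 4596.6, against 316.1, 302.2, 501 and 536.7 in BALB/c controls. DBA at day 18 had 4571.2, 3714.2 and 5576.8, against 446.5, 421.9 and 386.1 in DBA controls. All treated arrays lay at least 3.15 times above the highest control of their run. Log2 changes were 2.84 ± 0.21 in BALB/c at day 3, 3.35 ± 0.21 in F1 at day 3, 2.00 ± 0.21 in DBA at day 3, 3.15 ± 0.18 in BALB/c at day 18 and 3.37 ± 0.21 in DBA at day 18 (SE).

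The F1 response of C3ar1 at day 3 exceeded the DBA response by 1.35 ± 0.30 on the log2 scale (SE, 95% interval 0.75 to 1.96, limma adjusted p = 0.00920). It was the 1 gene of 7 called in this contrast, where 2.01% of all genes were called in either direction. Xist was high on F1 day 3 arrays and low on F1 controls, and high on both DBA groups of that run. The F1 against DBA difference therefore cannot be told apart from the level of Xist. The DBA response was larger at day 18 than at day 3 by 1.37 ± 0.30 (SE, 95% interval 0.77 to 1.98, adjusted p = 0.00748), also the 1 gene of 7 called, against 4.18% of all genes. That contrast spans 2 code runs, each with its own controls. The DBA day 18 run mixed arrays high and low in Xist, and the DBA arrays of the day 3 run were all high. Both contrasts use the same DBA day 3 arrays and their controls, so they are not independent. The other 2 probe sets of C3ar1 pointed the same way and did not pass: 0.99 and 0.55 for F1 against DBA, and 0.88 and 1.08 for DBA day 18 against day 3. The lowest adjusted p among these 4 values was 0.0966. The probe set used, as the brightest, had a mean signal of 1913.45, and the other 2 had 1912.54 and 1548.06. BALB/c against DBA at day 3 differed by 0.84 ± 0.30 (SE, 95% interval 0.23 to 1.44) and did not pass (adjusted p = 0.273). F1 against BALB/c differed by 0.52 ± 0.30 (SE, adjusted p = 0.686).

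Interferon-induced genes were also called in both contrasts that called C3ar1. Of 12 tested genes on that list, 5 rose in DBA at day 3 and all 12 in each of the other 4 responses. In F1 against DBA at day 3, 11 were called higher. Of all genes, 16.4% rose in DBA at day 3 and 18.3% to 22.4% in the other 4 responses. In F1 against DBA, 2.01% were called in either direction. Irf7, a transcription factor of the interferon response, had a log2 change of 0.19 in DBA at day 3 (limma adjusted p = 0.79), against 4.49 in F1 at day 3. The mean log2 signal of the list lay between 12.14 and 12.29 on F1 day 3 arrays and between 8.48 and 8.70 on F1 controls. On DBA day 3 arrays it lay between 8.75 and 9.09, against 8.09 to 8.39 on DBA controls. On DBA day 18 arrays it lay between 11.34 and 12.04, against 8.25 to 8.55 on DBA controls. Fcgr1, a high-affinity IgG receptor of macrophages, also differed between F1 and DBA at day 3, by 2.91. Nkg7 of the T and NK cell list differed there by 2.40 (limma adjusted p = 0.00103). The fibroblast gene Col1a2 differed by -0.87 (limma adjusted p = 0.0248). In BALB/c against DBA at day 3, Ifit1, Ifit3, Oas3, Oasl1 and Rsad2 of the interferon list were called, and C3ar1 was not. Genes of other lists were also called in DBA day 18 against day 3. Among them the mast cell gene Cma1 and the T cell gene Cd4 were higher, and the endothelial gene Tek was lower. The part of any of these genes in the C3ar1 differences was not tested.

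C5ar1, the receptor for C5a, also rose in all 5 responses. In BALB/c at day 3 C5ar1 had 2019.5, 2289.2 and 1951.1, against 199.6, 221.8 and 210.2 in BALB/c controls. In F1 at day 3 it had 2135.9, 2384.4 and 2314.5, against 350.5, 273.7 and 541.2 in F1 controls. DBA at day 3 had 2002.3, 1816.2 and 1664.6, against 248.7, 255.3 and 173.9 in DBA controls. Treated levels at day 3 lay close together, and the F1 controls were the highest controls of that run. BALB/c at day 18 had 2455.9, 2123.1, 1888.6 and 3086.7, against 459.3, 234.2, 419.1 and 474.2 in BALB/c controls. DBA at day 18 had 2651.4, 3899.8 and 3131.4, against 385.7, 366.2 and 215.4 in DBA controls. The lowest treated array was about 3.95 times the highest control of its run in F1 at day 3, and higher in the other responses. Log2 changes were 3.16 ± 0.24, 2.53 ± 0.24 and 2.90 ± 0.24 in BALB/c, F1 and DBA at day 3 (SE), and 2.54 ± 0.21 and 3.25 ± 0.24 in BALB/c and DBA at day 18 (SE). The second probe set of C5ar1 had log2 changes of 2.42 to 3.07 and passed in all 5 responses.

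**Figure D3:**
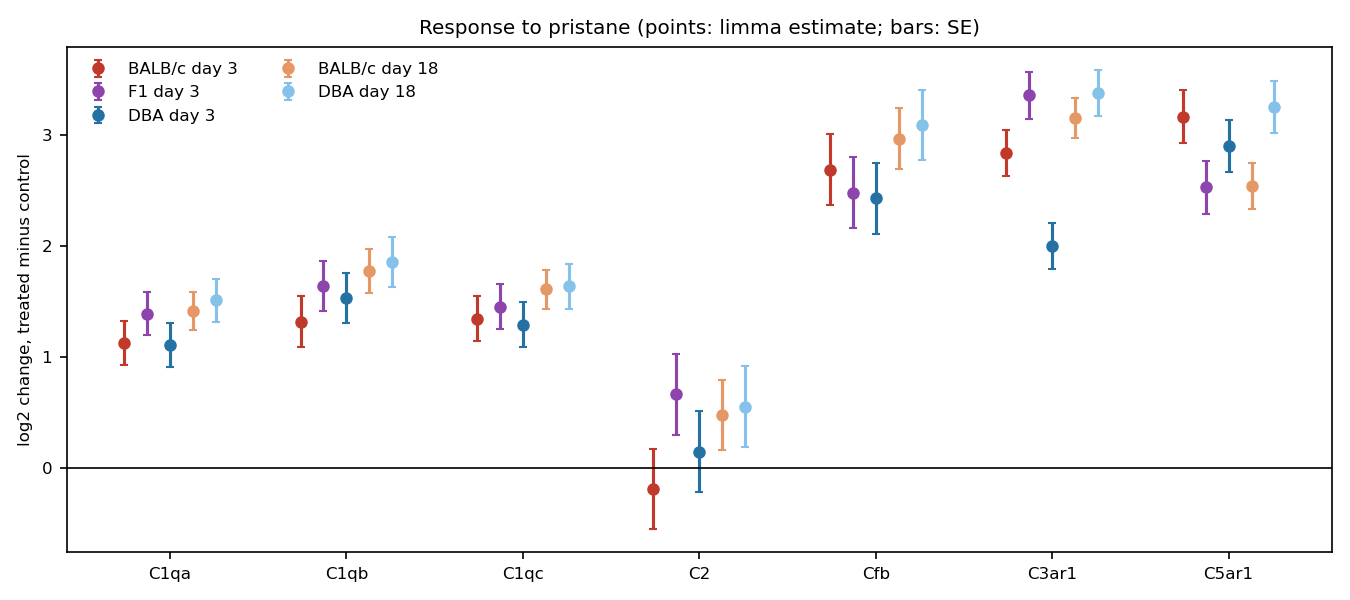
Log2 change, treated minus control, of the 7 genes in the 5 responses; points are limma estimates and bars are SE. C3ar1 in DBA at day 3, at 2.00, lies below its other 4 responses, and C2 lies nearest to 0.

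Outside C3ar1 no difference between responses was called for any of the 7 genes. In BALB/c against DBA at day 3, 0 of 7 were called (1 at an unadjusted p under 0.05), against 0.492% of all genes. In F1 against BALB/c at day 3, 0 of 7 were called (0 unadjusted), against 0.238%. BALB/c against DBA at day 18 gave 0 of 7 (1 unadjusted), against 1.01%, and BALB/c day 18 against day 3 gave 0 of 7 (0 unadjusted), against 0.361%. The unadjusted case at day 18 was C5ar1, with a BALB/c response smaller than the DBA response by a log2 difference of -0.71 ± 0.31 (SE, adjusted p = 0.264). The second C5ar1 probe set gave -0.02 there. Differences of the C1q chains lay between -0.21 and 0.45 over the 6 contrasts of responses. The widest of their 95% intervals for BALB/c against DBA at day 3, that of C1qb, ran between -0.87 and 0.45, so differences of that size cannot be told from none with these arrays.

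No difference between untreated strains was called for the 7 genes. DBA against BALB/c controls of the day 3 run gave 0 of 7 called in limma (0 at an unadjusted p under 0.05), against 7.68% of all genes. C2 averaged 3012 ± 570 in DBA controls and 4501 ± 618 in BALB/c controls (SD, n = 3 each), a log2 difference of -0.59 ± 0.36 (SE, adjusted p = 0.425). Without BALB/c control replicate 2, which is outside this pair of groups but enters the spread, the adjusted p of that C2 difference was 0.0105. Cfb averaged 807 ± 138 in DBA controls and 1174 ± 149 in BALB/c controls (SD, n = 3 each), a log2 difference of -0.53 ± 0.32 (SE, adjusted p = 0.401). The C1q chains differed by -0.31 to -0.23, C3ar1 by 0.14 and C5ar1 by 0.08. F1 controls against the mean of the parental strains gave 0 of 7 called (2 at an unadjusted p under 0.05), against 0.315% of all genes. These 2 were Cfb, higher by 0.79 ± 0.27, and C5ar1, higher by 0.72 ± 0.21 (SE), with limma adjusted p of 0.282 and 0.146. Without BALB/c control replicate 2 both passed, at 0.0465 and 0.0388. Xist was 55 to 107.1 on the F1 controls and 17079.3 or higher on the parental controls of that run. Hybrid origin and the level of Xist therefore cannot be told apart in this contrast.

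After the mean of each group in its code run was subtracted, the C1q chains still varied together over the 32 arrays. Pearson's r was 0.97 for C1qb with C1qc (Spearman's rho 0.93), 0.93 for C1qa with C1qb (rho 0.88) and 0.93 for C1qa with C1qc (rho 0.89). Without the 2 arrays farthest from the median of the first gene, r was 0.96, 0.89 and 0.88 in those pairs. Cfb with C5ar1 had r of 0.75 (rho 0.67), and C1qb with C5ar1 had 0.35 (rho 0.47). C2 with Cfb had 0.82, and 0.62 without BALB/c control replicate 2. These are descriptions of arrays that share scaling and, within a group, handling. The C1q chains and the pair of Cfb and C5ar1 parted on DBA day 18 replicate 2. That array lay below its group mean by 0.58 log2 units in C1qa, 0.77 in C1qb and 0.64 in C1qc, and above it by 0.30 in Cfb and 0.29 in C5ar1. Its neutrophil genes had a mean log2 signal of 12.83, against 9.36 and 10.07 on the other DBA day 18 arrays, and its macrophage genes 11.61, against 12.03 and 12.06. The part of these cell types in the split was not tested.

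**Figure D4:**
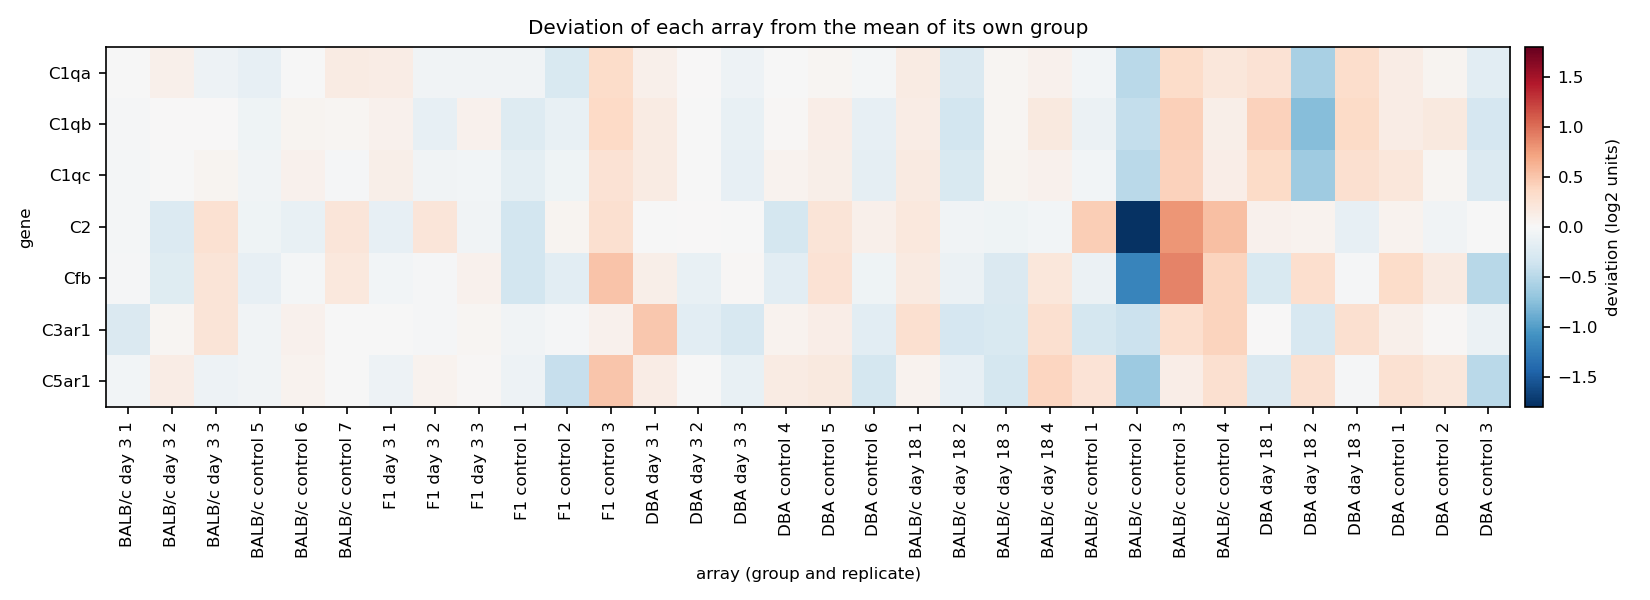
Deviation of each gene from its group mean, in log2 units, on all 32 arrays, with the 7 genes as rows. On DBA day 18 replicate 2 the C1q chains are low while Cfb and C5ar1 are high, and on BALB/c control replicate 2 C2 and Cfb are far below their group.

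The genes most like each member in pattern over the 32 arrays were named by Pearson's r of log2 signal. For C1qa they were Fcgr3 (0.975), Capg (0.974) and Fxyd5 (0.972), for C1qb Cd68 (0.973), Fcgr3 (0.973) and Capg (0.971), and for C1qc Cd68 (0.980), Fxyd5 (0.976) and Fcgr3 (0.975). Fcgr3 encodes an IgG receptor and Cd68 a lysosomal protein of macrophages. Cfb was nearest to Was (0.982), Rac2 (0.982) and Arhgap30 (0.980), C3ar1 to Lpxn (0.987), Hcls1 (0.986) and Capg (0.986), and C5ar1 to Rac2 (0.986), Timp1 (0.985) and Lcp2 (0.982). C2 had weaker neighbours, Erap1 (0.840), Smg1 (0.832) and Nod1 (0.830). All these values include the difference between treated and control arrays.

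Other genes of the cascade were read from fixed lists. Of all genes tested, 16.4% to 22.4% were called higher and 13.4% to 25% lower, by response. Among initiators, 9 of 12 listed genes were tested, and the same 3 rose in each response. These were C1ra and C1s1, the proteases of the C1 complex, and Fcna, a ficolin of the lectin pathway. C1ra had log2 changes of 1.36, 1.30 and 1.43 in BALB/c, F1 and DBA at day 3 and 2.06 and 1.88 in BALB/c and DBA at day 18. C1s1 had 1.44, 1.32 and 1.44 at day 3 and 1.75 and 1.86 at day 18, and Fcna had 2.01, 1.27 and 1.44 at day 3 and 1.23 and 0.95 at day 18. Colec11, a collectin, fell in BALB/c at day 3 (-0.67), and Masp1, a lectin pathway protease, fell in BALB/c at day 18 (-0.49). Colec11 was higher by 1.44 in DBA than in BALB/c controls, and Masp2 was lower by a log2 difference of -1.12, both called. Cfp, properdin, which stabilises the alternative convertase, was the 1 tested gene of 3 listed for that pathway and rose in all 5 responses, by 1.43 to 1.89.

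Of the terminal pathway, 2 of 7 listed genes were tested. C6, a subunit of the membrane attack complex, rose in all 5 responses, by 1.41 to 2.48. C8g fell in F1 at day 3 (-0.82), in BALB/c at day 18 (-0.76) and in DBA at day 18 (-1.12). Hc, which encodes C5, had signals between 2.2 and 56.8 on the 32 arrays and never reached the filter. C8a and C9 did not reach it on any array either.

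Regulators were split. Of 9 tested, calls came in 4 of the 5 responses, BALB/c at day 3 being the exception: 3 rose and 2 fell in F1 at day 3, 2 rose and 1 fell in DBA at day 3, 2 rose and 1 fell in BALB/c at day 18, and 4 rose and 1 fell in DBA at day 18. Of all genes, 18.6%, 16.4%, 21.7% and 22.4% were called higher in those 4 responses, in the same order. The share called lower was 18%, 13.4%, 22.2% and 25%. Whether the counts of regulators depart from these shares was not tested. Serping1, the C1 inhibitor, rose in F1 (0.45) and DBA (0.85) at day 3 and in BALB/c (0.76) and DBA (0.87) at day 18. Clu, clusterin, which binds terminal complexes, rose in F1 (1.38) and DBA (1.59) at day 3 and in DBA at day 18 (2.07). Cd55, a membrane protein that speeds decay of the convertases, rose by 1.20 in F1 at day 3, 1.24 in BALB/c at day 18 and 1.44 in DBA at day 18. Cd59a, an inhibitor of the membrane pore, fell in F1 at day 3 (-0.78) and in DBA at day 18 (-1.21). Cd46 fell in F1 (-0.60) and DBA (-0.62) at day 3, and Vtn fell in BALB/c at day 18 (-1.70). Cfi rose in DBA at day 18 (1.04). No regulator was called in any contrast of responses. The lowest adjusted p there was 0.0689 in limma, for Clu in BALB/c against DBA at day 18. Whether these calls differ between responses was not tested as a group.

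Of 7 other receptors tested, 4 rose in each day 3 response and 5 in each day 18 response. The share of all genes called higher was 16.4% to 18.6% at day 3 and 21.7% to 22.4% at day 18. Itgam and Itgax, the alpha chains of complement receptors that share the Itgb2 chain, were among them. Itgax rose by 2.16, 2.24 and 2.99 in BALB/c, F1 and DBA at day 3 and by 3.37 and 3.65 in BALB/c and DBA at day 18. Itgb2 rose by 2.28 to 2.90 over the 5 responses. Vsig4, a macrophage receptor for C3 fragments, rose by 1.32, 1.37 and 1.11 at day 3 and by 2.11 and 2.46 at day 18. C1qbp, a C1q-binding protein found mainly in mitochondria, fell in BALB/c at day 18 (-0.64).

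**Figure D5:**
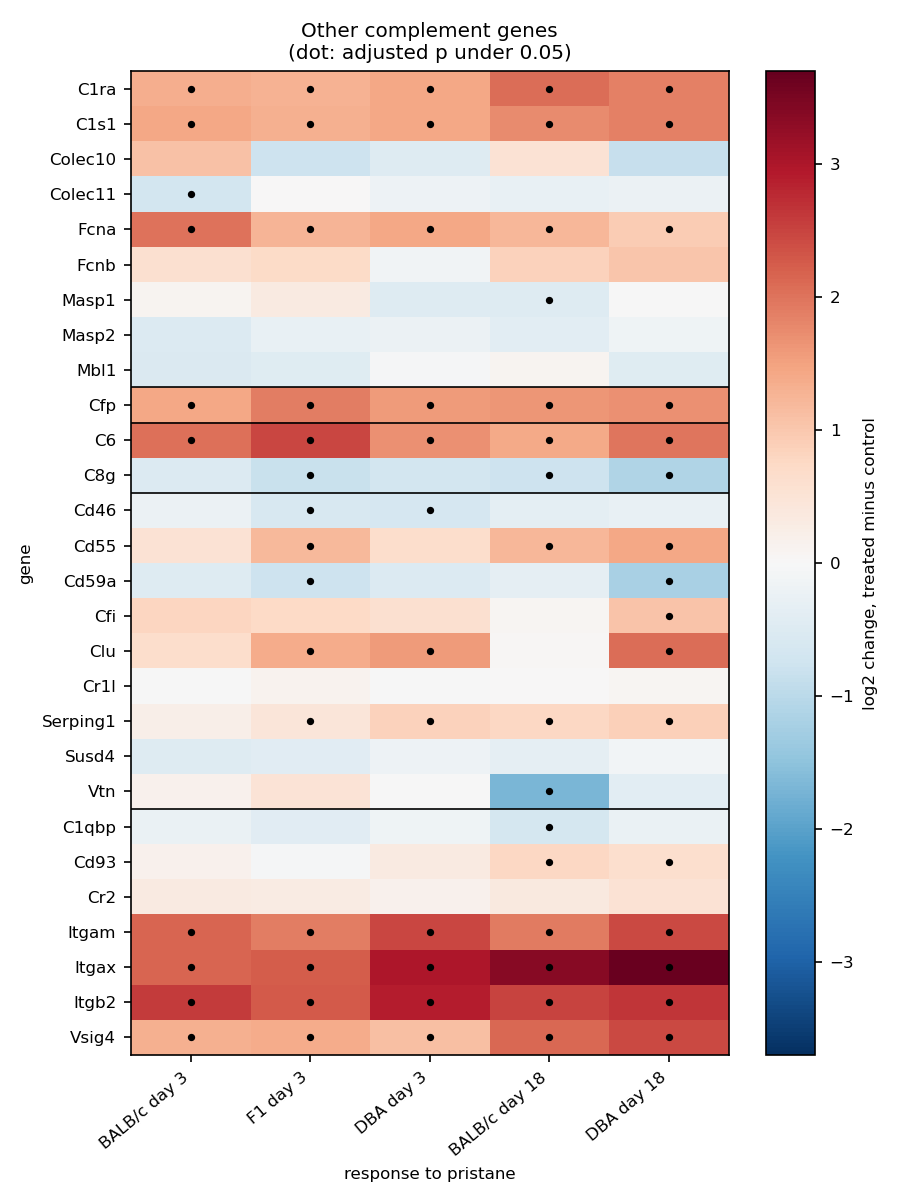
Log2 change, treated minus control, of 28 other complement genes in the 5 responses, grouped by role from initiators at the top to receptors at the bottom; a dot marks an adjusted p under 0.05. C1ra, C1s1, Fcna, Cfp, C6, Itgam, Itgax, Itgb2 and Vsig4 carry a dot in all 5 responses, and no regulator does.

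Markers of cells that make or carry these genes moved too. Of all genes tested, 16.4% to 22.4% were called higher and 13.4% to 25% lower, by response. Whether the counts below depart from these shares was not tested. Of 12 macrophage and monocyte genes tested, 9 rose in BALB/c at day 3, 9 in F1 at day 3, 10 in DBA at day 3, 10 in BALB/c at day 18 and 11 in DBA at day 18, and none fell. Their summed signal lay between 65665.6 and 76380 in BALB/c at day 3, against 30543.9 to 35406.3 in BALB/c controls, and between 71779.4 and 86278.7 in DBA at day 18, against 25169.3 to 32537.6 in DBA controls. Cd68 had log2 changes of 2.30 to 3.52, and Csf1r, the receptor that macrophages depend on, of 0.30 to 0.97. Of 10 neutrophil genes, 6, 5 and 4 rose in BALB/c, F1 and DBA at day 3, and 9 and 10 in BALB/c and DBA at day 18. Of 10 acute phase and cytokine genes, 7 to 9 rose in each response, and Il1b changed by 3.78 to 4.57. Orm1 of the same list, an acute phase plasma protein, had log2 changes of -3.14 to -0.97 and fell in 4 of the 5 responses, with DBA at day 3 not passing. Of 9 adipocyte genes, 1 fell in DBA at day 3 and 5 to 9 in the other responses. The share of all genes called lower was 13.4% in DBA at day 3 and 17.2% to 25% in the others. Of 9 liver genes listed, 2 were tested, and neither passed as higher in any response. Alb, albumin, had log2 changes of -1.61 to -0.84 and was called lower in F1 at day 3 and in BALB/c and DBA at day 18. Apoa1, an apolipoprotein, had log2 changes of -2.26 to -0.67 in 4 responses and 2.44 ± 1.20 (SE, limma adjusted p = 0.104) in BALB/c at day 18. The part of cell makeup in the complement changes was not tested.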

How the data were processed

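The deposited values are probe set intensity on a linear scale; per the submitters' processing notes the tools were GCOS and MAS5, whose versions are not stated there. The 2% trimmed mean is 500 on every array, and 13 values are 0. For arrays, their number limits the precision. Genes were named from the platform annotation: of 45101 probe sets, 34945 carried 1 symbol, 932 carried several and named no gene, and 64 array controls were left out. Symbols were checked against RefSeq names of GRCm38.p6, and 0 were updated.

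Probe sets above 103.7, the median of all values, on at least 3 arrays were kept, and the brightest represented each of 13016 genes. Log2(signal + 24.9), the offset being the 25th percentile, was modelled in limma 3.58.1 (R 4.3.3), using a level for each group in each code run and an intensity trend. Changes of dim genes are therefore understated. P-values are two-sided and were adjusted by Benjamini-Hochberg across every gene of a contrast. All 32 arrays set the spread. The procedure was tested on simulated data.

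Groups came from the strain, agent and time labels, and replicate numbers follow accession order. The genes and lists were chosen with earlier results of these data known. Named were the listed genes, list members called in a response (up to 4 per list and comparison by size), and the 3 genes most correlated with each. Members of the cell type lists were named in part. Il1b, Csf1r, Fcgr1, Irf7, Alb, Apoa1, Nkg7, Col1a2, the strain difference of Masp2 and dim genes were named after their values were seen. Of 5 promoter motifs, 2 (interferon-stimulated response element and NF-kappaB) were searched in 2 forms: the first forms had 10 letters, and the 9-letter forms printed here were adopted after the first matches had been read, for reasons of format; both outcomes are given. Alternatives were 12 other settings, each changing 1 choice, and each array left out in turn. Leaving BALB/c control replicate 2 or the 2 farthest arrays out of the correlations was chosen after seeing the data.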

Additional observations from a re-analysis of the deposited data

Results flagged for a closer look

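C2 on BALB/c day 18 replicate 1 had a signal of 4384.6, with a gap of 0.896 of the group's range to the other 3 arrays. That was 0.19 log2 units above its group mean. C2 on BALB/c control replicate 2 had 781.1, with a gap of 0.671 of the range over 7 controls. Of 28 groups of values examined for an array far from the rest, these 2 met the rule. Chance alone gives 5%, or about 1 in 20, so the count of 2 in 28 is close to chance. The second value lies on the array that stands apart from the others, with a highest correlation of 0.858. On its brightest probe set, the C3ar1 response differed between F1 and DBA at day 3 by 1.35. It differed between day 18 and day 3 in DBA by 1.37, each by a test of the difference itself. The other probe sets of C3ar1 passed in neither contrast. The first of these 2 differences did not pass when a gene's probe sets were averaged. It also cannot be told apart from the level of Xist.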

How the results depend on the processing

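No paired analysis was possible because the replicate numbers follow accession order and the labels pair no arrays. C1qa, C1qb, C1qc, Cfb, C3ar1 and C5ar1 kept their direction and an adjusted p under 0.05 in all 5 responses under all 12 other settings and with each array left out; the cause of the changes below was not tested. C2 was gained, for 7 of 7, with array weights and in a separate fit in F1 at day 3 and DBA at day 18, and in F1 at day 3 also with probe sets averaged and with a term for Xist. With array weights the number of the 7 genes called was 1 in BALB/c against DBA at day 3 (C3ar1), 1 in F1 against BALB/c (C2), 1 in BALB/c against DBA at day 18 (C5ar1), 1 in BALB/c day 18 against day 3 (C5ar1), 3 in DBA day 18 against day 3, 1 in DBA against BALB/c controls (C2) and 2 in F1 controls against the mid-parent (Cfb, C5ar1). Averaging probe sets left 0 in F1 against DBA, with C3ar1 at 0.96 (adjusted p = 0.118). Without the code run DBA day 18 against day 3 had 4, and a separate fit gave 2 in DBA against BALB/c controls. With each array left out, members called ran from 6 to 7 in the F1 day 3 and DBA day 18 responses, 0 to 1 in F1 against BALB/c, 0 to 1 in DBA against BALB/c controls and 0 to 2 in F1 controls against the mid-parent, the higher numbers all without BALB/c control replicate 2. C2 changed sign in BALB/c at day 3 without the code run (0.22), in BALB/c at day 18 with array weights (-0.10) and without BALB/c control replicate 2 (-0.11), in DBA at day 3 without DBA control replicate 4 (-0.0066), and in BALB/c day 18 against day 3 without the code run (-0.034), where C5ar1 also did (0.17). With each array left out, the C2 change ran from -0.0066 to 0.27 in DBA at day 3 and from -0.11 to 0.75 in BALB/c at day 18. Counts over all genes moved by over 1.5 times in some fits: the DBA day 3 response had 3874 genes called, 5879 with array weights and 3295 with the stricter filter, and the BALB/c day 18 response 5720, against 3418 in a separate fit. F1 against DBA had 262, and between 215 and 1643 under other settings. DBA day 18 against day 3 had 544, and between 319 and 4165. BALB/c against DBA had 64 at day 3 (31 to 929) and 131 at day 18 (6 to 1290), F1 against BALB/c 31 (6 to 715), BALB/c day 18 against day 3 47 (23 to 1089), DBA against BALB/c controls 999 (785 to 2135) and F1 controls against the mid-parent 41 (6 to 1302). Leaving out 1 array moved them too: BALB/c against DBA ran from 23 (without BALB/c day 3 replicate 1) to 200 at day 3 and from 41 (without DBA day 18 replicate 3) to 366 (without DBA day 18 replicate 1) at day 18, F1 against DBA from 187 (without F1 day 3 replicate 3) to 532, F1 against BALB/c from 10 (without BALB/c day 3 replicate 2) to 164, BALB/c day 18 against day 3 from 19 (without BALB/c day 3 replicate 1) to 110, DBA day 18 against day 3 from 247 (without DBA day 3 replicate 3) to 1242, DBA against BALB/c controls from 635 (without BALB/c control replicate 7) to 1653 and F1 controls against the mid-parent from 22 (without F1 control replicate 2) to 154, the highest being without BALB/c control replicate 2 where no array is named. With median centring the share of called genes that were higher was 95.8% against 83.6% in F1 against DBA, 91.3% against 77.4% in F1 against BALB/c, 55.6% against 44.3% in BALB/c against DBA at day 18, 80.6% against 63.8% in BALB/c day 18 against day 3, 72.7% against 59.0% in DBA day 18 against day 3, and 38.1% against 53.7% in F1 controls against the mid-parent.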
